A study of Mus musculus and Homo sapiens with 24 samples.

Results

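Receptor tyrosine kinases are single-pass membrane proteins that bind a ligand outside the cell, pair up, and phosphorylate each other and their substrates inside it. Adaptor proteins then recruit RAS, which starts the RAF, MEK and ERK kinase cascade, and phosphatidylinositol 3-kinase, which activates AKT. In muscle precursors, FGF, HGF and PDGF receptors are known for signals that favour proliferation and migration, the insulin receptor for growth and glucose uptake, and ERBB receptors for the response to neuregulin from nerves. Ephrin receptors differ from most others in that their ligands, the ephrins, sit on neighbouring cells. 42 listed genes of this class were taken by symbol from the human and the mouse count table, ignoring case, and all 42 were found in both, among 58735 human and 56748 mouse gene rows. They fall into 12 families, the largest being the ephrin receptors with 10 genes.

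The libraries came from LHCN-M2, a human skeletal myoblast line immortalised with TERT and CDK4, on days 0, 1 and 12, and from C2C12, a mouse skeletal myoblast line, on days 0, 1 and 6 of differentiation. There were 4 poly(A) RNA libraries in each of the 6 groups and 24 in all, and every sample carries the genotype label control. Each line is a single line, so no group speaks for other donors or strains, and the labels do not say that the 4 libraries came from separate cultures. The p-values therefore speak only of how much these libraries vary, and that variation may be technical. No treatment is named beside the day, and the last days, 12 and 6, are different times.

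Totals ran from 33030258 to 48546621 counts in LHCN-M2 and from 32795699 to 43827517 in C2C12. The labelled cell type was checked against its markers. Of 10 skeletal muscle genes, 9 were higher and 1 was lower on day 12 than on day 0 of LHCN-M2, and all 10 were higher on day 6 than on day 0 of C2C12, while MYOG had no counts on day 0 of LHCN-M2. LHCN-M2 replicate 2 of day 0 and replicate 1 of day 12 lay apart from their groups on the third principal component of all genes, which held 5.87% of the variance, at -72.5 where the rest of day 0 lay at 19.1 to 29.9, and at -22.3 where the rest of day 12 lay at 4.41 to 9.27. C2C12 replicate 2 of day 6 lay apart on the third component of that line, which held 3.48% of the variance, at 44.5 where the rest of day 6 lay at -28.3 to -6.55. Without that library, 26 of the receptor genes passed the test between days 6 and 0 of C2C12 in place of 27, and 27 between days 6 and 1 in place of 28. Without both LHCN-M2 libraries, 27 of the receptor genes passed the test between days 1 and 0 in place of 26, 31 between days 12 and 0 in place of 30, and 21 between days 12 and 1 in place of 19. Of the 42 genes, 35 passed the filter on low counts in LHCN-M2 and 34 in C2C12. 26 genes in each line reached a group mean of 5 CPM, a count scaled to a common library size.

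The mouse promoters of Epha4, Ror2 and Epha3, which changed strongly by day 6 of C2C12, and of Met, which moved against the human gene, are shown to give the sequence at their starts. They are RefSeq sequences on GRCm38.p6, from 250 bases before to 50 after the annotated transcription start. Capitals mark each CANNTG, the E-box that the MyoD family of muscle transcription factors binds. Epha4 (chr1:77515039-77515338 on the minus strand) and Met (chr6:17463707-17464006 on the plus strand) were higher on day 6 than on day 0 of C2C12, and Epha3 (chr16:63864126-63864425 on the minus strand) and Ror2 (chr13:53286075-53286374 on the minus strand) were lower.
Epha4: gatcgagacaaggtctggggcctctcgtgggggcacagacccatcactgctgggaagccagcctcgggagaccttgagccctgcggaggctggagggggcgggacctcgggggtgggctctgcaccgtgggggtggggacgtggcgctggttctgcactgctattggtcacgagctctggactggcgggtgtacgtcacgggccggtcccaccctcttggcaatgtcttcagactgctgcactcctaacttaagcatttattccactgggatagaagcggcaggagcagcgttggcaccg
Met: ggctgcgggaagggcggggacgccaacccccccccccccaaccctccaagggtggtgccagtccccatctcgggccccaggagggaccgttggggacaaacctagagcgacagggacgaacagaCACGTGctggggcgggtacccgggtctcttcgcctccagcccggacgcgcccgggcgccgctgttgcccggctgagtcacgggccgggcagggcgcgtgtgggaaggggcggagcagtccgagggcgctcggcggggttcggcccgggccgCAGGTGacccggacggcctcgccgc
Epha3: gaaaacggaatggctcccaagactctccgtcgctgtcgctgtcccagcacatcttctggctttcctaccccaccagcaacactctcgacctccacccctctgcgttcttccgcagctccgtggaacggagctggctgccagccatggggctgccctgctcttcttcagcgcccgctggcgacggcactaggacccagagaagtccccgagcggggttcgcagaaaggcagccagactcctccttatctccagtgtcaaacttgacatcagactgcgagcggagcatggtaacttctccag
Ror2: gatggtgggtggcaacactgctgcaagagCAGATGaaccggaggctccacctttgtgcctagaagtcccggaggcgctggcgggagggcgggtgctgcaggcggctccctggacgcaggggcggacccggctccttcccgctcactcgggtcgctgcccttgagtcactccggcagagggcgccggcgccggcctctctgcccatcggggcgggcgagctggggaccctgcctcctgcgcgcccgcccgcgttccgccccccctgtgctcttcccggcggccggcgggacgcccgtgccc
CANNTG is its own reverse complement, so 1 search covers both strands. CAGCTG and CACCTG were also searched for, the second as CACCTG or CAGGTG so that both strands were covered, and both are forms of CANNTG. Neither Epha4 nor Epha3 held a CANNTG in this window, Ror2 held 1, and Met held 2, of which 1 was a CACCTG on the other strand. 35 of the 42 genes matched this table, with 42 promoters, and CANNTG was found in 59.5% of those against 72.3% of all 32851 promoters in it. CAGCTG was found in 14.3% of the receptor promoters against 16.3% of all, and CACCTG in 9.52% against 20.2%. The receptor promoters were richer in G and C, with a median of 64.5% against 52.7%, and whether that sets the difference in motif shares was not tested. Erbb3, Pdgfrb, Ntrk3, Fgfr1, Ret, Csf1r and Insr had no match.

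Levels per gene length (RPKM, from the CPM and the gene length in the deposited tables) put AXL, a receptor for GAS6, at the top of the class on day 0 of both lines. In LHCN-M2 on day 0, AXL stood at 92.3 ± 6.73 RPKM (mean ± SD, n = 4, as for all RPKM and CPM means here), followed by MET, the HGF receptor, at 39.8 ± 8.11, the ephrin receptor EPHA2 at 33.5 ± 2.96, EGFR at 21.6 ± 6.43 and DDR2, a receptor for fibrillar collagen, at 17.2 ± 3.79. The SDs of MET and EPHA2, and those of EGFR and DDR2, overlap. By day 12 the order had changed to DDR2 at 36.8 ± 4.31, AXL at 24.2 ± 0.611, PDGFRB at 21.4 ± 2.05, MET at 18.1 ± 1.11, PTK7 at 16.9 ± 0.711 and DDR1 at 14.1 ± 0.476 RPKM. In C2C12 on day 0, Axl stood at 86.3 ± 1.33, Ryk, which binds WNT proteins, at 55.9 ± 2.70, Pdgfrb at 47.6 ± 4.29, Ddr2 at 47.1 ± 5.80 and Ephb6 at 28.3 ± 2.42 RPKM, and Pdgfrb and Ddr2 differed by less than their SDs. On day 6, Axl was still the highest at 90.1 ± 1.13, with Ryk at 38.5 ± 2.12, Pdgfrb at 31.8 ± 1.49, Epha2 at 19.4 ± 0.509, Ddr2 at 18.3 ± 1.66 and Met at 15.4 ± 0.498 RPKM.

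**Figure D1:**
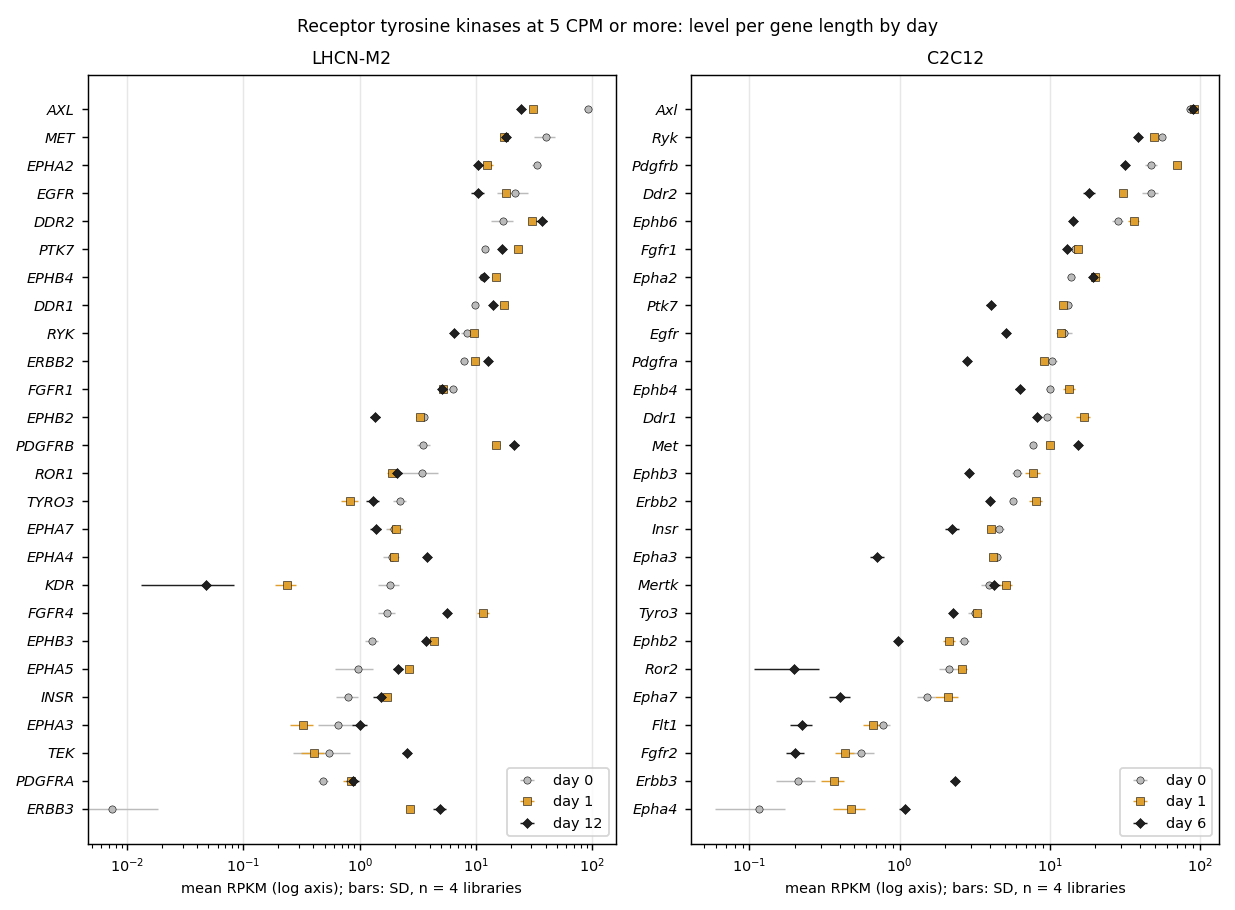
Mean RPKM (log axis) of the 26 receptor genes that reached 5 CPM in LHCN-M2 (left) and the 26 in C2C12 (right) on each day, with bars for the SD over 4 libraries. AXL leads both lines on day 0, ERBB3 is the lowest of these genes on day 0 of LHCN-M2, and most C2C12 genes have their day 6 point left of the others.

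As many receptor genes rose as fell by the last day in LHCN-M2, while most of those called in C2C12 fell. In LHCN-M2, 15 of the 35 genes that passed the filter were higher on day 12 than on day 0 at an adjusted p under 0.05 and 15 were lower, or 85.7% called in all. Of all genes tested, 27.1% were higher and 27.5% lower, or 54.6% called. The median log2 fold change of the 35 was 0.50, against -0.01 over all genes. In C2C12, 6 of 34 were higher and 21 lower on day 6 than on day 0, or 79.4% called, with a median of -0.56 against -0.03 over all genes. Of all genes tested there, 33.1% were higher and 32.5% lower, or 65.6% called. A gene that passed the filter only through a day on which it is high had to differ, so these counts describe the genes measured, not all 42. In these bulk libraries, fewer cells of a kind and less RNA per cell cannot be told apart.

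On the first day the share called in C2C12 was near that of all genes. Between days 1 and 0, 15 genes were higher and 11 lower in LHCN-M2, or 74.3% called, while 23.4% of all genes tested were higher and 23.5% lower, or 46.9% called. The median log2 fold change was 0.07, against 0.03 over all genes. In C2C12, 13 were higher and 6 lower on day 1, or 55.9% called, while 25.9% of all genes tested were higher and 24.4% lower, or 50.3% called. The median was 0.08 there, against -0.01 over all genes. The genes called between the last day and day 1 were mostly lower in both lines. Between days 12 and 1 of LHCN-M2, 7 were higher and 12 lower, or 54.3% called, while 20.9% of all genes tested were higher and 18.8% lower, or 39.8% called. Between days 6 and 1 of C2C12, 6 were higher and 22 lower, or 82.4% called, while 32.8% of all genes tested were higher and 28.6% lower, or 61.4% called.

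A further count required a change of at least 2-fold beside the adjusted p. In LHCN-M2 it was met by 9 higher and 8 lower genes on day 1 over day 0 (10.8% and 7.28% of all genes tested), by 7 higher and 9 lower on day 12 over day 0 (14.5% and 9.77%) and by 2 higher and 4 lower on day 12 over day 1 (8.28% and 4.93%). In C2C12 it was met by 2 higher and 1 lower on day 1 over day 0 (4.91% and 5.65% of all genes tested), by 4 higher and 12 lower on day 6 over day 0 (9.83% and 13.5%) and by 5 higher and 14 lower on day 6 over day 1 (7.39% and 10.8%). KIT, RET and NTRK3, with day 1 means of 0.468, 0.399 and 1.03 CPM, are among the 9 genes higher on day 1 of LHCN-M2. The C2C12 genes counted on day 1 over day 0 were Fgfr4, Epha4 and Fgfr3, with day 1 means of 0.212, 3.84 and 0.827 CPM. Fgfr4 and Ntrk3, with day 6 means of 0.679 and 2.95 CPM, are among those higher on day 6 over each earlier day. Fgfr3, at 1.71 CPM on day 6, is among those higher over day 1. The libraries of days 12 and 0 did not overlap for 29 of 35 genes in LHCN-M2 (48.6% of all genes tested), and those of days 6 and 0 did not overlap for 26 of 34 in C2C12 (59.0% of all genes tested).

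The EGF receptor family held the gene with the widest change. ERBB3, which binds neuregulin but has little kinase activity of its own and signals through ERBB2, had 0.0541, 0.212, 0 and 0 CPM on day 0, 24.3, 23.8, 25.4 and 24.4 CPM on day 1 and 37.4, 50.6, 44.9 and 44.7 CPM on day 12 in LHCN-M2. The 4 day 0 libraries held 10 counts together, replicates 3 and 4 had none, and every library of day 1 and then of day 12 was above all of the earlier day. The log2 fold change was 8.51 ± 0.34 (SE, adjusted p = 2.66e-11) on day 1 and 9.37 ± 0.33 (SE, adjusted p = 5.36e-12) on day 12 against day 0, and its size depends on those few day 0 counts. With so few, the gene could pass the filter only through the later days. In C2C12, Erbb3 had 0.733, 1.36, 1.499 and 1.49 CPM on day 0, 1.83, 2.14, 2.74 and 2.03 CPM on day 1 and 15.2, 12.9, 14.6 and 13.6 CPM on day 6. The days did not overlap, day 6 was far above both others, and the log2 fold change of day 6 over day 0 was 3.47 ± 0.19 (SE, adjusted p = 1.73e-12). ERBB3 is also a gene of Schwann cells. The 7 Schwann and neural markers summed to 6.05 to 7.81 CPM on day 12 and 8.92 to 12.6 CPM on day 0 of LHCN-M2, with 0 higher and 2 lower of the 3 that passed the filter. In C2C12 they summed to 312.4 to 327.6 CPM on day 6 and 20.1 to 24.5 CPM on day 0, with 2 higher, Tubb3 and Nefm, of the 3 that passed the filter. SOX10 and RBFOX3 had no counts on any day of C2C12. Their part in the result was not tested.

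EGFR, the receptor for EGF, fell late in both lines. In LHCN-M2 it had 286, 153, 322 and 321 CPM on day 0, 219, 237, 230.4 and 222 CPM on day 1 and 106, 141, 143 and 132 CPM on day 12. Replicate 2 of day 0 was far below the other 3, yet all day 12 libraries were below all of days 0 and 1. The log2 fold change of day 12 over day 0 was -1.05 ± 0.18 (SE, adjusted p = 0.000144). On day 1 it was -0.25 ± 0.18 (SE, adjusted p = 0.262) against day 0, and without replicate 2 of day 0 it was -0.42, with an adjusted p of 0.000207. In C2C12, Egfr had 118, 159, 143 and 148 CPM on day 0, 131, 142, 137 and 129 CPM on day 1 and 60.5, 53.6, 57 and 60.5 CPM on day 6. Days 0 and 1 overlapped and day 6 lay below both, with a log2 fold change over day 0 of -1.29 ± 0.07 (SE, adjusted p = 2.75e-12). ERBB2, which has no known ligand and pairs with the other ERBB receptors, had 78.4, 90.6, 76 and 81.8 CPM on day 0, 102, 98.7, 99.8 and 104 CPM on day 1 and 127, 141, 129 and 131 CPM on day 12 in LHCN-M2, higher on each later day with no overlap, and day 12 over day 0 was 0.70 ± 0.07 (SE, adjusted p = 8.85e-07) on the log2 scale. In C2C12, Erbb2 had 31.6, 28.8, 28.9 and 30.3 CPM on day 0, 39.6, 37.4, 45.9 and 44.7 CPM on day 1 and 20.1, 21.8, 20.8 and 21.2 CPM on day 6. It was highest on day 1 and lowest on day 6, without overlap, and day 6 over day 0 was -0.51 ± 0.08 (SE, adjusted p = 4.48e-06). ERBB4, another neuregulin receptor, had no counts in any C2C12 library, which allows at most 0.0209 CPM on day 0, and none on day 0 of LHCN-M2. It had 82 counts on day 12 of LHCN-M2, at least 26.3-fold above the limit of 3 counts over the day 0 group, with the limit covering counting error only.

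Of the FGF receptors, FGFR4, a receptor of developing and regenerating muscle, changed most in LHCN-M2. It had 6.90, 9.68, 9.40 and 7.54 CPM on day 0, 64.2, 49.1, 58.2 and 51.5 CPM on day 1 and 28.5, 27.3, 26.3 and 26.6 CPM on day 12. Day 1 was the highest day, day 12 lay between, and no days overlapped. The log2 fold change over day 0 was 2.73 ± 0.12 (SE, adjusted p = 1.04e-10) on day 1 and 1.70 ± 0.12 (SE, adjusted p = 1.2e-08) on day 12. In C2C12, Fgfr4 was low, at a group mean of at most 0.679 CPM, and rose on 103 counts over the 4 libraries of day 6 and 4 counts over those of day 0 (adjusted p = 5.23e-05). It could pass the filter only through its later days, so some difference from day 0 was built into its being tested. FGFR1, the main FGF receptor of many mesenchymal cells, stood at 70.3 ± 2.52 CPM on day 12 and 87.5 ± 7.97 CPM on day 0 of LHCN-M2, with -0.32 ± 0.08 (SE, adjusted p = 0.00267) for day 12 over day 0. Fgfr1 in C2C12 had 145, 149.7, 136 and 151 CPM on day 0, 154, 149, 163 and 147 CPM on day 1 and 129, 129, 127 and 132 CPM on day 6, and its day 6 libraries were all below the others, with -0.17 ± 0.05 (SE, adjusted p = 0.00544) over day 0. Fgfr2 had 4.19, 5.34, 6.45 and 6.90 CPM on day 0, 4.94, 4.88, 3.50 and 4.61 CPM on day 1 and 2.16, 2.45, 1.80 and 1.94 CPM on day 6 in C2C12. The day 6 libraries were the lowest, days 0 and 1 overlapped, and day 6 over day 0 was -1.45 ± 0.19 (SE, adjusted p = 9.83e-07). FGFR2 had no counts in any LHCN-M2 library, which allows at most 0.0192 CPM on day 0. FGFR3 stayed under 2 CPM in both lines, at group means of 0.146 to 0.386 CPM in LHCN-M2, with no comparison called, and 0.827 to 1.77 CPM in C2C12, lowest on day 1.

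The PDGF receptors went opposite ways in the lines. PDGFRB, the receptor for PDGF-BB and a gene of pericytes and fibroblasts, had 28.4, 21.1, 24.4 and 27.2 CPM on day 0, 103, 99.9, 118 and 101 CPM on day 1 and 131, 159, 162 and 159 CPM on day 12 in LHCN-M2. Each day lay above the one before without overlap, and replicate 1 was the lowest of day 12. The log2 fold change over day 0 was 2.06 ± 0.11 (SE, adjusted p = 4.42e-10) on day 1 and 2.59 ± 0.11 (SE, adjusted p = 2.91e-11) on day 12. In C2C12, Pdgfrb had 230.0, 281, 254 and 276 CPM on day 0, 405, 367, 392 and 377 CPM on day 1 and 182, 168, 167 and 181 CPM on day 6. It was highest on day 1 and lowest on day 6, with no overlap. Day 1 over day 0 was 0.56 ± 0.06 (SE, adjusted p = 1.39e-07) and day 6 over day 0 was -0.58 ± 0.06 (SE, adjusted p = 3.86e-08). PDGFRA, which binds PDGF-AA and marks fibro-adipogenic cells in muscle tissue, had 5.03, 5.15, 4.52 and 4.17 CPM on day 0, 9.83, 7.46, 8.20 and 7.36 CPM on day 1 and 10.02, 8.54, 8.45 and 7.18 CPM on day 12 in LHCN-M2. Days 1 and 12 overlapped and lay above day 0, with 0.86 ± 0.14 (SE, adjusted p = 0.00011) for day 12 over day 0. In C2C12, Pdgfra had 92.6, 107, 98.8 and 114 CPM on day 0, 93.6, 89.4, 93.7 and 89 CPM on day 1 and 29.7, 28, 28.8 and 26.8 CPM on day 6. The day 6 libraries were the lowest by far and days 0 and 1 overlapped, with -1.87 ± 0.07 (SE, adjusted p = 9.78e-16) for day 6 over day 0. KIT, the stem cell factor receptor, had no counts in C2C12 and a group mean of at most 0.468 CPM in LHCN-M2. It was called higher there on day 1 than on day 0, at 2.81 ± 0.84 (SE, adjusted p = 0.0121), on 81 and 10 counts. With so few on day 0, KIT could pass the filter only through later days, so some difference was built into its being tested. CSF1R, a macrophage receptor, fell in LHCN-M2 to 0.53 ± 0.169 CPM on day 12, against 2.59 ± 0.246 CPM on day 0 (-2.29 on the log2 scale, adjusted p = 9.6e-05), and stayed near 0.6 CPM in C2C12.

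The summed levels of fibroblast and of pericyte markers moved beside the PDGF receptors. The 7 fibroblast markers, led by collagen genes, summed to 24181 to 25192 CPM on day 12 and 10499 to 10871 CPM on day 0 of LHCN-M2. Of the 6 that passed the filter, 5 were higher and 1 lower, and TCF21 had no counts on day 12. In C2C12 they summed to 10634 to 11111 CPM on day 6 and 14300.4 to 16721 CPM on day 0. Of the 5 that passed the filter, 2 were higher and 2 lower, and Thy1 and Tcf21 had no counts on either day. The 6 smooth muscle and pericyte markers summed to 812.5 to 883.4 CPM on day 12 and 307.0 to 447.7 CPM on day 0 of LHCN-M2. In that line 5 of them have a symbol that occurs once, and only these enter the count of called genes. Of the 4 that passed the filter, 2 were higher and 1 lower. In C2C12 the 6 markers summed to 1354 to 1548 CPM on day 6 and 1605 to 1751 CPM on day 0, and all 4 that passed the filter were lower. Both sums and both receptors were higher on the last day in LHCN-M2 and lower in C2C12. Taken singly, the fibroblast markers of C2C12 were split, with a median log2 fold change of 0.0001. The part of the markers in the result was not tested.

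The VEGF and angiopoietin receptors, known from endothelium, were low and moved apart in LHCN-M2. KDR, the main signalling receptor for VEGFA, had 11.5, 8.91, 14.9 and 12.2 CPM on day 0, 1.39, 1.98, 1.61 and 1.25 CPM on day 1 and 0.274, 0.18, 0.158 and 0.653 CPM on day 12. It was lower on each later day with no overlap, and the log2 fold change was -2.93 ± 0.28 (SE, adjusted p = 5.83e-07) on day 1 and -5.17 ± 0.34 (SE, adjusted p = 4.89e-09) on day 12 against day 0. TEK, the angiopoietin receptor, had 2.54, 0.849, 4 and 3.07 CPM on day 0, 2, 1.56, 2.52 and 1.68 CPM on day 1 and 13.4, 12.7, 12 and 10.9 CPM on day 12. Days 0 and 1 overlapped and every day 12 library was above them, with 2.22 ± 0.31 (SE, adjusted p = 2.1e-05) over day 0. Between days 1 and 0 it was -0.43 ± 0.32 (SE, adjusted p = 0.291), and -0.69 with an adjusted p of 0.00476 without replicate 2 of day 0. FLT4, the receptor for VEGFC, fell to 1.11 ± 0.164 CPM on day 12, against 3.75 ± 0.59 CPM on day 0. In C2C12, Flt1, which binds VEGFA as a decoy, had 11.4, 10.4, 8.90 and 11.4 CPM on day 0, 7.14, 9.46, 9.53 and 10.1 CPM on day 1 and 3.06, 2.42, 3 and 3.64 CPM on day 6. Its day 6 libraries were the lowest, days 0 and 1 overlapped, and day 6 over day 0 was -1.79 ± 0.15 (SE, adjusted p = 1.14e-09). Kdr and Flt4 held at most 20 counts over the 4 libraries of any C2C12 day, Tek stayed at a group mean of at most 0.614 CPM, and TIE1, a partner of TEK, stayed at a group mean of at most 0.136 CPM in LHCN-M2 and had no counts in C2C12.

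Some endothelial markers rose in LHCN-M2, where KDR and FLT4 fell and TEK rose by day 12. CDH5, a defining endothelial gene, had no counts on any day there. The 5 endothelial markers summed to 2.62 to 3.90 CPM on day 0, 15.2 to 18.7 CPM on day 1 and 7.92 to 10.6 CPM on day 12. Of the 4 that passed the filter, CLDN5 was higher on day 1 and CLDN5 and VWF on day 12 than on day 0, and none was lower. CLDN5 led the sum, with a mean of 15 ± 1.70 CPM on day 1, when KDR had already fallen. In C2C12 they summed to 0.382 to 0.533 CPM on day 6 and 0.270 to 1.03 CPM on day 0, and Cldn5 had no counts. The 6 immune markers, given for CSF1R, summed to 1.71 to 2.86 CPM on day 12 and 1.35 to 2.07 CPM on day 0 of LHCN-M2, with none called in either direction. Their part in the results was not tested.

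MET and AXL fell early in LHCN-M2. MET had 277, 200.5, 325 and 318 CPM on day 0, 115, 131, 120.2 and 121 CPM on day 1 and 117, 134, 133 and 126 CPM on day 12. All day 0 libraries were above all of days 1 and 12, which overlapped, and the log2 fold change over day 0 was -1.20 ± 0.12 (SE, adjusted p = 1.06e-06) on day 1 and -1.14 ± 0.12 (SE, adjusted p = 1.37e-06) on day 12. In C2C12, Met had 59.5, 58.1, 60.3 and 60.0 CPM on day 0, 77.1, 79.8, 75.6 and 74.5 CPM on day 1 and 123, 114, 118 and 119 CPM on day 6. It was higher on each later day with no overlap, and its 0.99 ± 0.05 (SE, adjusted p = 3.42e-13) for day 6 over day 0 is just under 2-fold. AXL had 465, 432, 496 and 510.1 CPM on day 0, 162, 159.6, 158 and 157 CPM on day 1 and 127, 120.5, 125 and 128 CPM on day 12 in LHCN-M2. The days did not overlap and most of the difference was already present on day 1, at -1.58 ± 0.07 (SE, adjusted p = 5.43e-11), with -1.93 ± 0.07 (SE, adjusted p = 4.58e-12) on day 12 against day 0. In C2C12, Axl had 432, 444, 429 and 431 CPM on day 0, 461, 462, 472 and 452 CPM on day 1 and 447, 455, 452 and 460.3 CPM on day 6. Its day 6 libraries overlapped with those of day 1, and all day 0 libraries lay slightly below those of both later days. Neither day 1 nor day 6 passed the test against day 0 (adjusted p = 0.0799 and 0.191), with day 6 over day 0 at 0.06 on the log2 scale. TYRO3, a relative of AXL, had 25.3, 22, 21.7 and 27.9 CPM on day 0, 8.88, 7.61, 8.77 and 11.1 CPM on day 1 and 14.7, 14.7, 15.9 and 11.8 CPM on day 12 in LHCN-M2. Day 1 was lowest and day 0 highest, without overlap, and the log2 fold change over day 0 was -1.41 ± 0.13 (SE, adjusted p = 5.11e-07) on day 1 and -0.76 ± 0.13 (SE, adjusted p = 0.000169) on day 12. Tyro3 in C2C12 fell by day 6, at -0.50 ± 0.09 (SE, adjusted p = 3.47e-05) over day 0. MERTK, the third receptor of this family and known for uptake of dead cells, was at 3.16 ± 0.409 CPM on day 12 and 1.77 ± 0.56 CPM on day 0 of LHCN-M2 (0.83 ± 0.26 (SE, adjusted p = 0.0133)), and in C2C12 it was at 0.40 ± 0.10 (SE, adjusted p = 0.00191) on day 1 and 0.12 ± 0.10 (SE, adjusted p = 0.275) on day 6 over day 0. MST1R, a relative of MET, stayed at a group mean of at most 0.0999 CPM in LHCN-M2 and 0.549 CPM in C2C12.

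**Figure D2:**
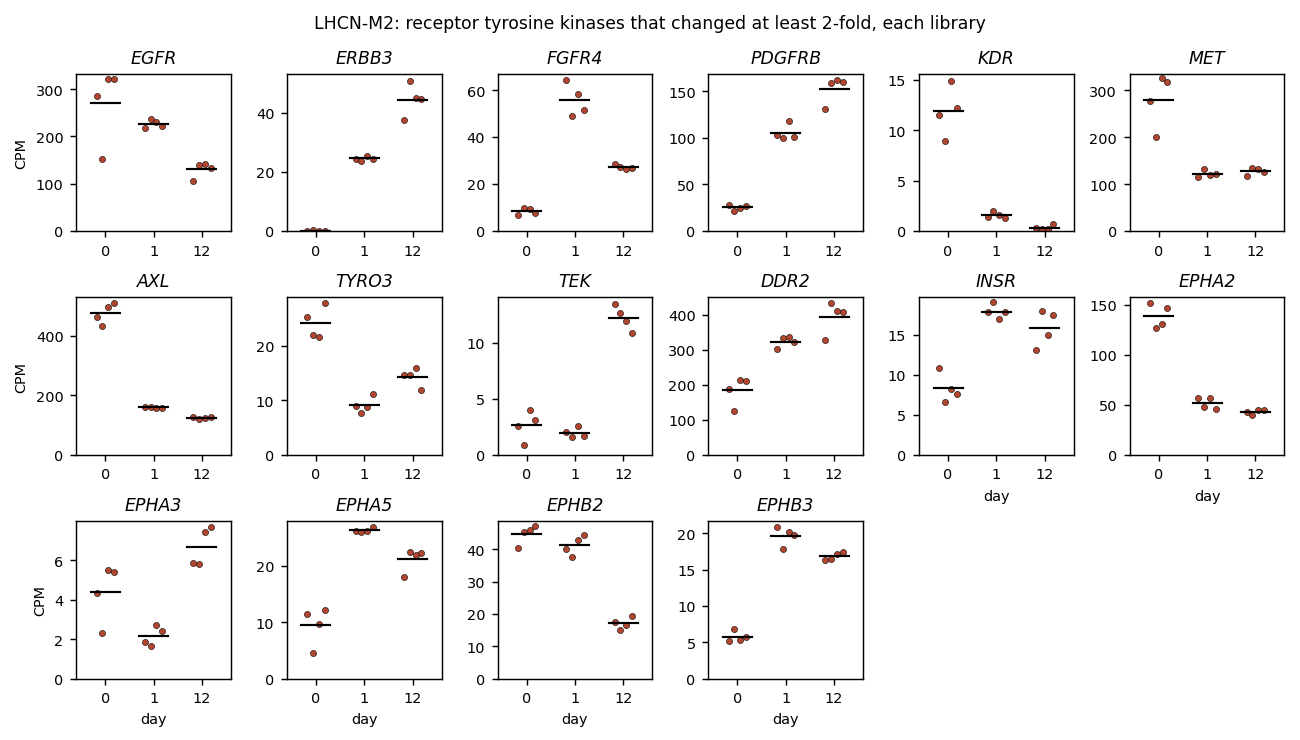
CPM of every LHCN-M2 library by day for the 16 receptor genes that reached 5 CPM and changed at least 2-fold between any days, with bars at the mean of 4 libraries. AXL, MET and EPHA2 are high on day 0 alone, ERBB3 and PDGFRB are higher on each later day, and FGFR4 is highest on day 1.

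The collagen receptors DDR1 and DDR2 rose in LHCN-M2. DDR2 had 187, 126, 213 and 211 CPM on day 0, 301, 333, 335 and 322 CPM on day 1 and 328, 434, 409.7 and 407 CPM on day 12. The day 0 libraries were all below those of days 1 and 12, replicate 2 being the lowest, and days 1 and 12 overlapped. The log2 fold change over day 0 was 0.81 ± 0.14 (SE, adjusted p = 0.00018) on day 1 and 1.10 ± 0.14 (SE, adjusted p = 7.39e-06) on day 12. In C2C12, Ddr2 had 358, 479, 450.2 and 458 CPM on day 0, 273, 280.2, 292 and 288 CPM on day 1 and 184, 148, 172 and 176 CPM on day 6. It was lower on each later day with no overlap, at -1.36 ± 0.08 (SE, adjusted p = 2.29e-12) for day 6 over day 0. DDR1, the collagen receptor of epithelial cells in the main, had 87.5, 92, 90.3 and 85.1 CPM on day 0, 158, 147, 176 and 156 CPM on day 1 and 128, 129, 123 and 133 CPM on day 12 in LHCN-M2. Day 1 was the highest and day 0 the lowest without overlap, and day 12 over day 0 was 0.53 ± 0.07 (SE, adjusted p = 1.13e-05). Ddr1 in C2C12 had 41.1, 47.8, 48.4 and 47.1 CPM on day 0, 89.4, 69.3, 81 and 81 CPM on day 1 and 38.7, 40.8, 37.5 and 41.4 CPM on day 6. Day 1 again lay above the others, while day 6 was lower than day 0 in all but replicate 1 of day 0, with -0.22 ± 0.07 (SE, adjusted p = 0.0142).

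ROR1, ROR2, RYK and PTK7, which take part in WNT signalling, were all lower on day 6 than on day 0 of C2C12, a direction in which 32.5% of all genes tested were called. Ror2, a WNT5A receptor, had 7.96, 10.4, 7.94 and 9.80 CPM on day 0, 12.1, 10.1, 11.1 and 10.7 CPM on day 1 and 0.34, 0.727, 1.15 and 1.16 CPM on day 6. The day 6 libraries were all near 1 CPM or below, days 0 and 1 overlapped, and day 6 over day 0 was -3.42 ± 0.23 (SE, adjusted p = 3.51e-11). Ptk7, a pseudokinase of planar cell polarity, had 64.5, 75.3, 69.2 and 74.2 CPM on day 0, 69.6, 63.8, 66.4 and 65.1 CPM on day 1 and 22.8, 20.4, 20.8 and 23.2 CPM on day 6. Day 6 lay far below the others and days 0 and 1 overlapped, with -1.70 ± 0.07 (SE, adjusted p = 6.82e-15) for day 6 over day 0. Ryk and Ror1 fell as well, at -0.54 ± 0.05 (SE, adjusted p = 1.33e-08) and -0.48 ± 0.19 (SE, adjusted p = 0.0344) for day 6 over day 0. In LHCN-M2, PTK7 had 113, 102, 105 and 109 CPM on day 0, 209, 193, 221 and 211 CPM on day 1 and 147, 151, 149.5 and 161 CPM on day 12. Day 1 was the highest and day 0 the lowest without overlap, and day 12 over day 0 was 0.50 ± 0.07 (SE, adjusted p = 1.5e-05). RYK stood at 52.6 ± 2.49 CPM on day 12 and 67.6 ± 7.74 CPM on day 0 of LHCN-M2, with -0.36 ± 0.09 (SE, adjusted p = 0.00225) for day 12 over day 0. ROR1 stood at 14 ± 1.43 CPM on day 12 and 23.1 ± 8.82 CPM on day 0, where replicate 2 was at 10.2 CPM and the others at 24.4 to 29.0 CPM, and day 12 over day 0 was -0.72 ± 0.24 (SE, adjusted p = 0.0177). ROR2 had no counts on day 12 of LHCN-M2 and 20 on day 0, so day 12 was at least 6.74-fold lower against the limit of 3 counts over the group.

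The insulin receptor moved opposite ways as well. INSR had 10.8, 6.66, 8.19 and 7.65 CPM on day 0, 17.8, 19.1, 17 and 17.8 CPM on day 1 and 13.1, 18, 15.1 and 17.5 CPM on day 12 in LHCN-M2. The day 0 libraries lay below those of days 1 and 12, which overlapped, and the log2 fold change over day 0 was 1.11 ± 0.14 (SE, adjusted p = 1.34e-05) on day 1 and 0.93 ± 0.14 (SE, adjusted p = 5.66e-05) on day 12. In C2C12, Insr had 57.2, 69.1, 64.2 and 63 CPM on day 0, 55.5, 53.1, 59.9 and 53.7 CPM on day 1 and 35.2, 27.6, 29.7 and 31.1 CPM on day 6. Day 6 was below both others, and the log2 fold change of day 6 over day 0 was -1.03 ± 0.08 (SE, adjusted p = 1.58e-10). On day 1 it was -0.19 ± 0.07 (SE, adjusted p = 0.0389), a call that was lost in 7 of the 8 fits that left out 1 library of either day. RET, the GDNF receptor, stayed at a group mean of at most 0.399 CPM in LHCN-M2 and 0.815 CPM in C2C12, and NTRK3, the neurotrophin-3 receptor, at 1.03 and 2.95 CPM. Both were called higher on day 1 than on day 0 of LHCN-M2, though their libraries overlapped. RET was at 2.31 ± 0.86 (SE, adjusted p = 0.0384) and NTRK3 at 1.18 ± 0.42 (SE, adjusted p = 0.0322). RET held 70 counts over day 1 and 12 over day 0. It could pass the filter only through later days, so some difference was built into its being tested. Ntrk3 rose in C2C12, at 1.28 ± 0.26 (SE, adjusted p = 0.000216) for day 6 over day 0, while NTRK2, the receptor for BDNF, had no counts in C2C12 and at most 4 counts over any day of LHCN-M2.

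Among the ephrin receptors, EPHA2 fell early in LHCN-M2. It had 152, 127, 131 and 147 CPM on day 0, 57.1, 47.6, 57 and 46 CPM on day 1 and 42.5, 40.2, 45 and 44.8 CPM on day 12. The days did not overlap, and the log2 fold change over day 0 was -1.42 ± 0.09 (SE, adjusted p = 7.81e-09) on day 1 and -1.69 ± 0.09 (SE, adjusted p = 8.53e-10) on day 12. In C2C12, Epha2 had 59.2, 66.6, 68.3 and 63.8 CPM on day 0, 91.4, 85.8, 95.2 and 103 CPM on day 1 and 89.7, 89.3, 94.2 and 89.4 CPM on day 6. Days 1 and 6 overlapped and both lay above day 0, with 0.49 ± 0.06 (SE, adjusted p = 4.78e-07) for day 6 over day 0. EPHA3, known from axon guidance and heart valve development, had 4.33, 2.31, 5.50 and 5.43 CPM on day 0, 1.85, 1.67, 2.73 and 2.42 CPM on day 1 and 5.88, 5.83, 7.42 and 7.70 CPM on day 12 in LHCN-M2. Day 1 overlapped with day 0 at its low end, day 12 lay above both, and day 12 over day 0 was 0.61 ± 0.24 (SE, adjusted p = 0.0453), a call that was lost in 6 of the 8 fits that left out 1 library of either day. In C2C12, Epha3 had 40.0, 41.7, 38.1 and 35.7 CPM on day 0, 36.1, 37.1, 36 and 37 CPM on day 1 and 6.31, 5.54, 7.03 and 5.77 CPM on day 6. The day 6 libraries were far below the others, and day 6 over day 0 was -2.66 ± 0.08 (SE, adjusted p = 1.61e-16).

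EPHA4, which binds ephrins of both classes and is known at neuromuscular contacts, rose in both lines. It had 14.8, 11.4, 14.2 and 16.7 CPM on day 0, 15.2, 14.4, 13.9 and 16.3 CPM on day 1 and 25.9, 29.5, 29.3 and 29.3 CPM on day 12 in LHCN-M2. Days 0 and 1 overlapped, day 12 lay above both, and the 1.00 ± 0.11 (SE, adjusted p = 2.25e-06) for day 12 over day 0 is just under 2-fold. In C2C12, Epha4 had 0.758, 1.60, 0.779 and 0.584 CPM on day 0, 4.41, 3.03, 4.86 and 3.06 CPM on day 1 and 8.01, 9.09, 9.43 and 8.27 CPM on day 6. Each day lay above the one before with no overlap, and day 6 over day 0 was 3.23 ± 0.25 (SE, adjusted p = 3.22e-10). EPHA5, a receptor best known from the nervous system, had 11.5, 4.61, 9.76 and 12.1 CPM on day 0, 26.2, 25.9, 26.2 and 26.8 CPM on day 1 and 18.1, 22.4, 21.9 and 22.2 CPM on day 12 in LHCN-M2. Day 0 was the lowest and day 1 the highest without overlap, with 1.47 ± 0.21 (SE, adjusted p = 3.3e-05) on day 1 and 1.15 ± 0.21 (SE, adjusted p = 0.000245) on day 12 over day 0. Epha5 had no counts in C2C12. Epha7 fell in C2C12, where it had 12.9, 14.2, 14.9 and 17.9 CPM on day 0, 15.5, 23.6, 22.8 and 20.8 CPM on day 1 and 3.86, 4.72, 4.06 and 3.22 CPM on day 6. Day 6 was below every library of the other days, which overlapped, and day 6 over day 0 was -1.92 ± 0.15 (SE, adjusted p = 2.75e-10), against -0.53 ± 0.14 (SE, adjusted p = 0.00409) for day 12 over day 0 of LHCN-M2.

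Of the B-type ephrin receptors, EPHB2 fell by the last day in both lines and EPHB3 moved apart. EPHB2 had 40.5, 45.4, 45.8 and 47.1 CPM on day 0, 40.0, 37.5, 42.9 and 44.4 CPM on day 1 and 17.4, 14.9, 16.7 and 19.4 CPM on day 12 in LHCN-M2. Days 0 and 1 overlapped and day 12 was far below, at -1.39 ± 0.10 (SE, adjusted p = 9.06e-09) over day 0. Ephb2 had 31.7, 31.4, 35.9 and 36.2 CPM on day 0, 28.3, 23.3, 27.4 and 28.8 CPM on day 1 and 11.8, 12.8, 12.5 and 12.1 CPM on day 6 in C2C12. Each day lay below the one before without overlap, and day 6 over day 0 was -1.46 ± 0.08 (SE, adjusted p = 3.41e-12). EPHB3, known from intestinal crypts, had 5.22, 6.84, 5.27 and 5.73 CPM on day 0, 20.9, 17.8, 20.2 and 19.7 CPM on day 1 and 16.4, 16.5, 17.2 and 17.4 CPM on day 12 in LHCN-M2. Day 0 was lowest and day 1 highest without overlap, and day 12 over day 0 was 1.55 ± 0.11 (SE, adjusted p = 9.15e-09). In C2C12, Ephb3 had 37.5, 43.6, 42.5 and 38.3 CPM on day 0, 55.6, 43.9, 56.1 and 49.3 CPM on day 1 and 20.3, 19.9, 18.7 and 18.7 CPM on day 6. Day 1 was highest and day 6 lowest without overlap, and day 6 over day 0 was -1.06 ± 0.08 (SE, adjusted p = 3.43e-10).

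Ephb4, a venous receptor for ephrin B2, and Ephb6, which has no kinase activity, had the same order of days in C2C12. Ephb4 had 44.2, 48.4, 49.2 and 44.2 CPM on day 0, 64, 57.3, 69.5 and 59.2 CPM on day 1 and 29.98, 27.4, 27.9 and 31.6 CPM on day 6, and Ephb6 had 98.1, 117, 112 and 99.9 CPM on day 0, 145, 124, 148 and 129.6 CPM on day 1 and 56, 50.2, 54.6 and 55.2 CPM on day 6. For both, day 1 was the highest and day 6 the lowest without overlap, with -1.10 ± 0.07 (SE, adjusted p = 3.6e-11) and -1.34 ± 0.07 (SE, adjusted p = 9.29e-13) for day 6 over day 1. EPHB4 in LHCN-M2 was at 75.1 ± 5.25 CPM on day 12 and 74.1 ± 6.87 CPM on day 0, a difference of 0.02 ± 0.09 (SE, adjusted p = 0.857). EPHB6 fell in LHCN-M2 to 0.314 ± 0.248 CPM on day 12, against 2.12 ± 0.906 CPM on day 0, and EPHB1 to 2.03 ± 0.427 CPM against 3.59 ± 0.634 CPM. Ephb1 stayed at a group mean of at most 0.144 CPM in C2C12.

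**Figure D3:**
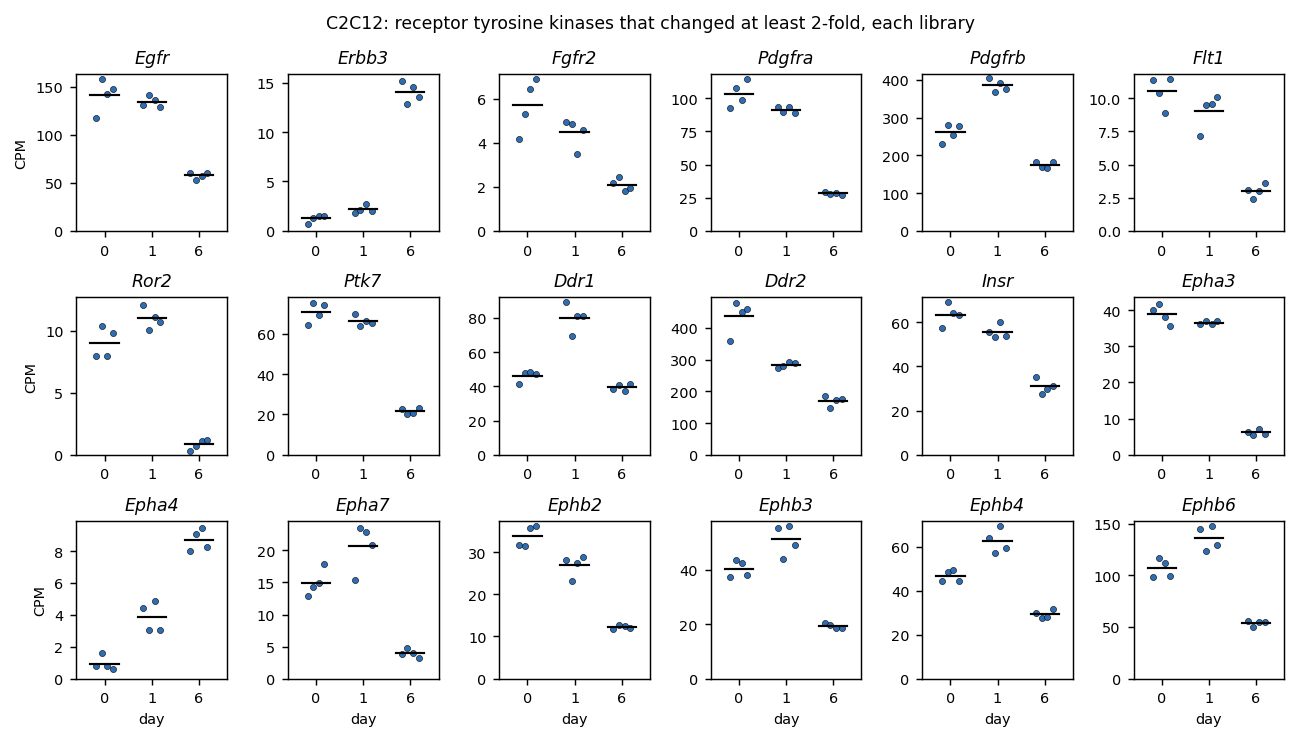
CPM of every C2C12 library by day for the 18 receptor genes that reached 5 CPM and changed at least 2-fold between any days, with bars at the mean of 4 libraries. Erbb3 and Epha4 are highest on day 6, the other 16 genes are lowest on day 6, and the day 6 libraries overlap with no day 1 library in any panel.

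The difference between the lines was tested as an interaction for 39 of the 42 genes, in a fit of 13347 genes matched by symbol. For the change from day 0 to the last day, 15 genes had a higher and 9 a lower log2 fold change in LHCN-M2 than in C2C12 at an adjusted p under 0.05, while 29.9% of all genes tested were higher and 31.6% lower, or 61.5% called. For the change to day 1 there were 9 higher and 10 lower, while 23.3% of all genes tested were higher and 27.5% lower, or 50.8% called. 21 genes reached 5 CPM in both lines. By the last day, 9 of these had risen in LHCN-M2 and fallen in C2C12, namely ERBB2, PDGFRA, PDGFRB, PTK7, DDR1, DDR2, INSR, EPHA3 and EPHB3, and 2 had done the opposite, MET and EPHA2. ERBB3 and EPHA4 rose in both lines, and EGFR, FGFR1, TYRO3, RYK, EPHA7 and EPHB2 fell in both. AXL fell in LHCN-M2 alone and EPHB4 in C2C12 alone.

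The widest differences among genes that went opposite ways were those of EPHA3, at 3.34 ± 0.25 (SE, adjusted p = 1.64e-11) on the log2 scale, and PDGFRB, at 3.25 ± 0.12 (SE, adjusted p = 2.53e-17). EPHA3 belongs to this group through its LHCN-M2 rise alone, whose call was lost in most fits without 1 library, as given above. PDGFRA differed by 2.80 ± 0.14 (SE, adjusted p = 7.11e-15), EPHB3 by 2.68 ± 0.13 (SE, adjusted p = 3.29e-15) and DDR2 by 2.54 ± 0.17 (SE, adjusted p = 2.69e-12). These are all higher in LHCN-M2, while MET and EPHA2, at -2.05 ± 0.14 (SE, adjusted p = 1.56e-12) and -2.10 ± 0.11 (SE, adjusted p = 1.55e-14), are lower. AXL differed by -1.92 ± 0.07 (SE, adjusted p = 1.61e-17), with a fall in LHCN-M2 and no call in C2C12. On day 1 the genes called in opposite directions were PDGFRA, DDR2 and INSR, higher in LHCN-M2, and MET and EPHA2, lower. The C2C12 calls of Pdgfra (-0.18 ± 0.06 (SE, adjusted p = 0.0242)) and Insr behind this were lost in 6 and 7 of the 8 fits that left out 1 library of either day. For the last day, the difference of EGFR was 0.31 ± 0.21 (SE, adjusted p = 0.202) and that of EPHB2 was 0.15 ± 0.12 (SE, adjusted p = 0.315), and neither was called. Without LHCN-M2 replicate 2 of day 0 and replicate 1 of day 12 the difference of EGFR was 0.23 (adjusted p = 0.0458). The last-day differences compare day 12 of LHCN-M2 with day 6 of C2C12, and in them species and time cannot be told apart. The first-day differences compare day 1 with day 1, and in them species and line cannot be told apart.

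**Figure D4:**
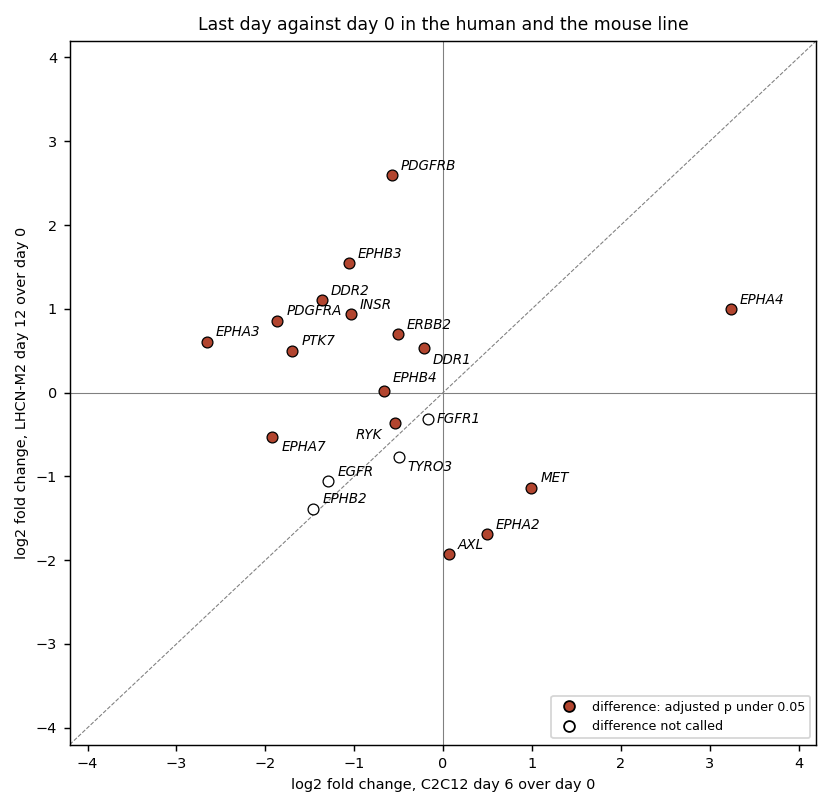
Log2 fold change of the last day over day 0 in LHCN-M2 (vertical) against C2C12 (horizontal) for 20 receptor genes that reached 5 CPM in both lines, with filled points where the difference had an adjusted p under 0.05 and a dashed line of equal change. ERBB3 is left out because its value of 9.37 in LHCN-M2 lies off the axis. The 9 genes called higher in LHCN-M2 and lower in C2C12 lie upper left, with EPHB4 beside them near 0 on the vertical axis, and MET and EPHA2 lie lower right, with AXL beside them near 0 on the horizontal axis.

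The ligands of these receptors moved in both directions. Of 34 measured growth factor genes in LHCN-M2, 17 were higher and 9 lower on day 12 than on day 0, with a median log2 fold change of 0.64, while 27.1% of all genes tested were higher and 27.5% lower. In C2C12, 11 of 32 were higher and 11 lower on day 6, with a median of -0.06, which is near the 33.1% higher and 32.5% lower of all genes tested. Over all genes the medians were -0.01 and -0.03. AREG, an EGFR ligand, fell furthest in LHCN-M2, at -7.01 ± 0.39 (SE, adjusted p = 7.35e-10), while IL34, a CSF1R ligand, rose by 5.16 ± 0.19 (SE, adjusted p = 5.67e-12), FGF7 by 4.28 ± 0.17 (SE, adjusted p = 2.16e-11) and PDGFB by 3.83 ± 0.27 (SE, adjusted p = 1.39e-08). In C2C12, Pdgfd, a PDGFRB ligand, rose by 2.54 ± 0.15 (SE, adjusted p = 2.91e-12) and Hbegf, an EGFR ligand, by 2.22 ± 0.09 (SE, adjusted p = 9.23e-15), while Fgf7 was at -2.02 ± 0.06 (SE, adjusted p = 5.4e-17) and Hgf, the ligand of Met, at -1.46 ± 0.07 (SE, adjusted p = 8.71e-14). FGF7 acts through a splice form of FGFR2, a gene with no counts in LHCN-M2. NRG1, the neuregulin that binds ERBB3 and ERBB4, was chosen for mention after its values were seen: it stood at 58.3 ± 5.16 CPM on day 12 and 25.7 ± 1.10 CPM on day 0 of LHCN-M2, at 1.18 ± 0.08 (SE, adjusted p = 8.69e-09), and was not analysed here in C2C12.

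Of the ephrin genes, 5 fell in LHCN-M2. Of 7 measured there, 1 was higher and 5 lower on day 12 than on day 0, with a median log2 fold change of -0.94, and of 8 in C2C12, 1 was higher and 3 lower on day 6, with a median of 0.13. Over all genes tested the shares were 27.1% higher and 27.5% lower in LHCN-M2, and 33.1% and 32.5% in C2C12. EFNB1 was at -0.96 ± 0.14 (SE, adjusted p = 3.79e-05), EFNB2 at -0.94 ± 0.12 (SE, adjusted p = 8.77e-06) and EFNA5 at -0.72 ± 0.11 (SE, adjusted p = 3.09e-05) in LHCN-M2. In C2C12, Efna5 was at -1.41 ± 0.17 (SE, adjusted p = 2.06e-07), Efnb1 at -0.64 ± 0.10 (SE, adjusted p = 8.64e-06) and Efna1 at -0.38 ± 0.12 (SE, adjusted p = 0.00771), while Efnb2, the ligand of Ephb4, rose by 0.68 ± 0.09 (SE, adjusted p = 5.98e-07).

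Co-receptors present ligands to the kinases. Of 9 measured in LHCN-M2, 3 were higher and 3 lower on day 12 than on day 0, near the 27.1% and 27.5% of all genes tested. Of 11 in C2C12, 6 were higher and 5 lower on day 6, beside 33.1% and 32.5% of all genes tested. GFRA1, which holds GDNF for RET, rose in both lines, at 2.61 ± 0.10 (SE, adjusted p = 1.23e-11) in LHCN-M2 and 4.54 ± 0.15 (SE, adjusted p = 4.81e-16) in C2C12, while RET itself stayed under 1 CPM. The syndecans, proteoglycans that bind FGFs, split in LHCN-M2, with SDC2 at 2.76 ± 0.09 (SE, adjusted p = 1.14e-12) and SDC1 at -2.25 ± 0.11 (SE, adjusted p = 1.08e-10). NRP1, which binds VEGFA beside KDR, fell there too, at -1.86 ± 0.10 (SE, adjusted p = 5.55e-10). In C2C12, Gpc1, a glypican, rose by 1.12 ± 0.05 (SE, adjusted p = 2e-14), and Gfra2 and Gfra4 fell, at -2.54 ± 0.11 (SE, adjusted p = 4.4e-14) and -1.48 ± 0.15 (SE, adjusted p = 3.35e-08).

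Genes downstream of the receptors, from adaptors to ERK and AKT, moved in both directions in both lines. Of 31 measured in LHCN-M2, 9 were higher and 11 lower on day 12 than on day 0, and 11 were not called. Of 32 in C2C12, 14 were higher and 12 lower on day 6, and 6 were not called. The medians were -0.16 and -0.01. Of all genes tested, 27.1% were higher and 27.5% lower in LHCN-M2, or 54.6% called. In C2C12 33.1% were higher and 32.5% lower, or 65.6% called. The adaptors GAB2 and GAB1 rose in LHCN-M2, at 2.65 ± 0.14 (SE, adjusted p = 3.25e-10) and 1.05 ± 0.15 (SE, adjusted p = 3.51e-05), while IRS2, an insulin receptor substrate, and the MEK gene MAP2K1 fell, at -1.94 ± 0.09 (SE, adjusted p = 6.57e-11) and -1.05 ± 0.07 (SE, adjusted p = 8.6e-09). In C2C12, Pik3r1, the regulatory subunit of phosphatidylinositol 3-kinase, was at -1.43, Irs2 at -1.40, the FGF receptor substrate Frs3 at -1.33 and the phospholipase Plcg1 at -1.14 on the log2 scale, with adjusted p-values of at most 9.93e-05.

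Feedback inhibitors of RTK signals, of which only some are switched on by those signals, differed between the lines on the first day. Of 19 measured in LHCN-M2, 6 were higher and 7 lower on day 1 than on day 0, with a median log2 fold change of -0.32, and of 17 in C2C12, 12 were higher and 1 lower, with a median of 0.67. Of all genes tested on that day, 23.4% were higher and 23.5% lower in LHCN-M2, and 25.9% and 24.4% in C2C12. By the last day 5 were higher and 9 lower in LHCN-M2, and 9 higher and 6 lower in C2C12. The shares of all genes by then were 27.1% higher and 27.5% lower in LHCN-M2, and 33.1% and 32.5% in C2C12. DUSP5, a phosphatase of ERK, was at -2.55 ± 0.11 (SE, adjusted p = 3.01e-11) for day 12 over day 0 in LHCN-M2 and at 1.91 ± 0.12 (SE, adjusted p = 1.52e-11) for day 6 over day 0 in C2C12. SPRY4, which blocks RAS activation, was at -2.10 ± 0.13 (SE, adjusted p = 3.9e-09) in LHCN-M2 and 1.10 ± 0.21 (SE, adjusted p = 8.11e-05) in C2C12. ERRFI1, an inhibitor of EGFR, was at -1.76 ± 0.09 (SE, adjusted p = 2.31e-10) and 0.64 ± 0.05 (SE, adjusted p = 2.41e-10), and SPRED3 at -1.34 ± 0.11 (SE, adjusted p = 9.86e-08) and -0.94 ± 0.11 (SE, adjusted p = 9.6e-08). The ERK phosphatase Dusp6 stood at 73.1 ± 6.12 CPM on day 6 and 12 ± 1.77 CPM on day 0 of C2C12, at 2.60 ± 0.09 (SE, adjusted p = 8.71e-16), and at -0.46 ± 0.11 (SE, adjusted p = 0.00226) for day 12 over day 0 in LHCN-M2. Spry1 and Dusp4 also rose in C2C12, at 3.11 ± 0.26 (SE, adjusted p = 9.13e-10) and 1.63 ± 0.08 (SE, adjusted p = 8.42e-14).

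Transcription factor genes that ERK induces also differed between the lines. On day 1, 1 of 9 was higher and 6 lower than on day 0 in LHCN-M2, and 6 of 9 were higher and 1 lower in C2C12, with medians of -0.70 and 0.80. By the last day 2 were higher and 5 lower in LHCN-M2, and 7 higher and 1 lower in C2C12. The shares of all genes tested on day 1 were 23.4% higher and 23.5% lower in LHCN-M2, and 25.9% and 24.4% in C2C12. By the last day they were 27.1% higher and 27.5% lower in LHCN-M2, and 33.1% and 32.5% in C2C12. FOSL1, a partner of JUN, was at -3.14 ± 0.11 (SE, adjusted p = 3.21e-12) in LHCN-M2 and 1.68 ± 0.14 (SE, adjusted p = 1.58e-09) in C2C12. ETV4, an ETS factor, was at -2.31 ± 0.22 (SE, adjusted p = 2.83e-07) and 1.61 ± 0.08 (SE, adjusted p = 2.06e-13). EGR2 rose in both, at 3.83 ± 0.17 (SE, adjusted p = 5.15e-11) and 0.99 ± 0.12 (SE, adjusted p = 2.66e-07). MYC fell in both, at -1.21 ± 0.10 (SE, adjusted p = 7.41e-08) and -0.57 ± 0.07 (SE, adjusted p = 2.18e-07). IER2 was at -0.76 ± 0.14 (SE, adjusted p = 0.000215) and 0.66 ± 0.09 (SE, adjusted p = 1.06e-06). The test of the difference between the lines called 12 of 18 feedback inhibitors lower and 4 higher in LHCN-M2 on the first day, and 9 lower and 4 higher by the last day. For the 9 transcription factors it called 6 lower and none higher on the first day, and 6 lower and 1 higher by the last. Of all genes tested, 27.5% were lower and 23.3% higher on the first day and 31.6% and 29.9% by the last, so the counts of higher genes were at or under those shares. Protein and phosphorylation of ERK were not measured in these files.

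**Figure D5:**
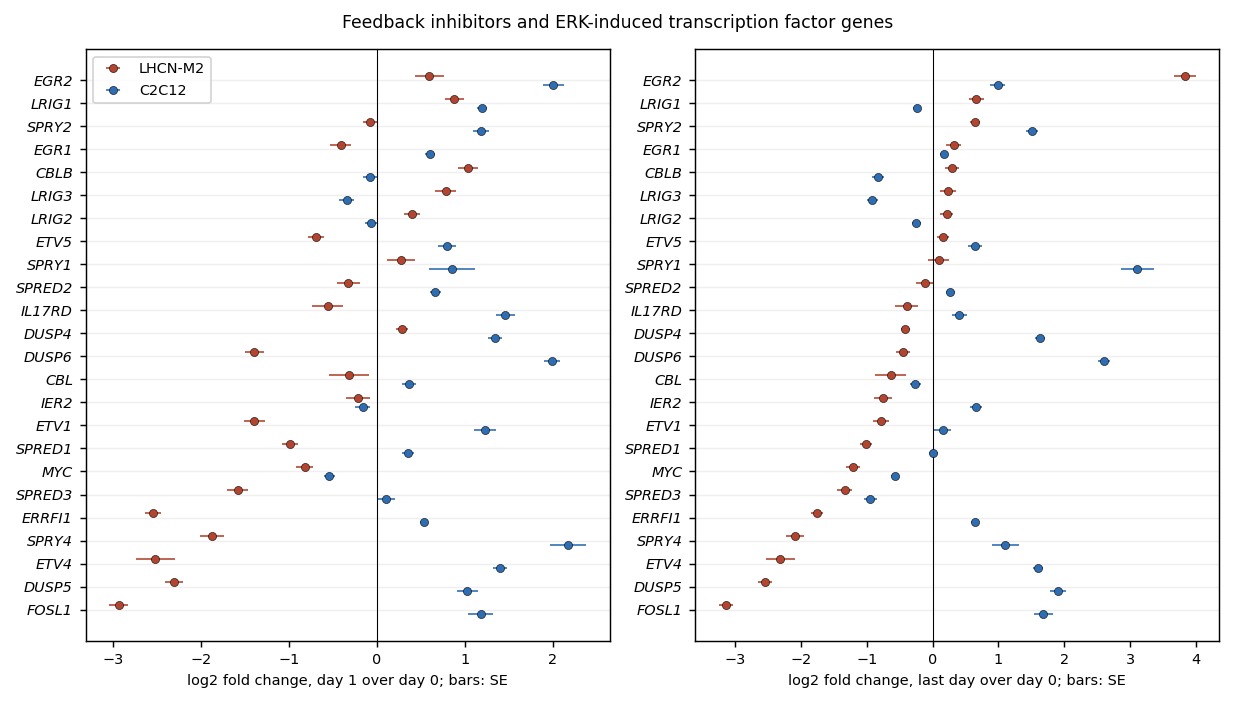
Log2 fold change over day 0, with bars for the SE, of the 24 feedback inhibitor and ERK-induced transcription factor genes that reached 5 CPM in both lines, on day 1 (left) and on the last day (right). On day 1 the LHCN-M2 points of FOSL1, ERRFI1, ETV4 and DUSP5 lie below -2 and their C2C12 points above 0.

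Of 16 further receptor tyrosine kinase genes outside the 42, 10 were measured in LHCN-M2, with 4 higher and 1 lower on day 12 than on day 0, and 6 in C2C12, with 1 higher and 2 lower on day 6. Of all genes tested, 27.1% were higher and 27.5% lower in LHCN-M2, and 33.1% and 32.5% in C2C12. MUSK, the kinase that gathers acetylcholine receptors at the neuromuscular junction, rose in both lines, at 1.14 ± 0.20 (SE, adjusted p = 0.000178) in LHCN-M2 and 0.37 ± 0.11 (SE, adjusted p = 0.00521) in C2C12. STYK1 and ROS1 rose in LHCN-M2, at 1.58 ± 0.23 (SE, adjusted p = 3.7e-05) and 0.57 ± 0.22 (SE, adjusted p = 0.0368), and Epha1 and the IGF1 receptor gene Igf1r fell in C2C12, at -1.10 ± 0.10 (SE, adjusted p = 2.25e-09) and -0.70 ± 0.08 (SE, adjusted p = 1.23e-07). On GRCh38, human ERBB3 lies at chr12:56076799-56103505 (plus strand, ENSG00000065361) and PDGFRB at chr5:150113837-150155872 (minus strand, ENSG00000113721). AXL lies at chr19:41219203-41261766 (plus strand, ENSG00000167601) and EPHA3 at chr3:89107524-89482134 (plus strand, ENSG00000044524), each span covering the whole gene with its exons and introns.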

How the data were processed

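Gene counts were deposited by the authors as 1 table per line, with gene lengths and coordinates per the file headers, and hold whole numbers that are not normalized. The submitters' processing notes name featureCounts 2.0.6 and HISAT2 2.2.1, also StringTie 2.2.3 and fastp, with the builds mm10 and GRCh38 (hg38). Neither strand setting nor annotation is named in the labels, so reads of overlapping and antisense genes may be mixed. All 24 columns of samples were matched to their labels, with 0 columns unmapped. Of counts from 1 to 10, 67.6% were even in C2C12 and 67.3% in LHCN-M2, and since reads are not independent molecules, the floors given for counts of 0 (3 counts over a group) cover counting error only.

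From these counts, edgeR 4.0.16 (R 4.3.3) fitted each line's 12 libraries with quasi-likelihood tests after filterByExpr (17065 genes tested in C2C12, 18214 in LHCN-M2) and TMM scaling, with p-values adjusted by Benjamini-Hochberg over all genes tested. The lines were compared through an interaction in 1 fit of the 24 libraries on 13347 of 16608 symbols matched between species. CPM uses the TMM-scaled library size, and RPKM divides it by the deposited gene length. The threshold was an adjusted p under 0.05. Alternatives were RLE scaling, no filter or a stricter one (10 CPM in 4 libraries), DESeq2 1.42.0, fits of only the groups compared, a replicate block, leaving out each library, and a 2-fold threshold. Replicate numbers did not pair the libraries.

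The receptor genes and the gene lists were chosen with earlier results of these data known. Values of every library are printed for receptor genes with a group mean of at least 5 CPM and a called change of at least 2-fold in a line, and for at most 5 others per line. From each other list, at most 4 genes per line are named, those with the widest called change by the last day and at least 5 CPM, with their value in the other line where the lines are compared.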

Additional observations from a re-analysis of the deposited data

Results flagged for a closer look

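Of 156 groups of 4 libraries tested over the receptor genes, 5 held a library whose gap to the nearest of the others exceeded the 95% critical share of the group's range in Dixon's test, and chance gives about 1 in 20. Replicate 1 of day 12 of LHCN-M2 was the lowest for PDGFRB, at 130.8 CPM beside 159.0 to 161.8 in the others, for EPHA4, at 25.9 CPM beside 29.3 to 29.5, and for EPHA5, at 18.1 CPM beside 21.9 to 22.4. Replicate 2 of day 0 of LHCN-M2 was the lowest for EPHA7, at 11.3 CPM beside 15.7 to 16.2. In C2C12, replicate 3 of day 6 was the highest for Epha2, at 94.2 CPM beside 89.3 to 89.7. Both LHCN-M2 libraries are those that lay apart on the third principal component.

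The change over day 0 differed between the lines, by the interaction test at an adjusted p under 0.05, for 15 of the 21 receptor genes that reached 5 CPM in both lines on the first day and for 17 on the last day. Of all 13347 genes tested, 50.8% differed on the first day and 61.5% on the last, so a difference was common among all genes. On the first day the log2 difference, LHCN-M2 minus C2C12, was above 0 for ERBB3 (7.74), PDGFRA (1.00), PDGFRB (1.52), RYK (0.39), PTK7 (1.08), DDR2 (1.46), INSR (1.32) and EPHB3 (1.45). It was below 0 for FGFR1 (-0.34), MET (-1.54), AXL (-1.64), TYRO3 (-1.44), EPHA2 (-1.94), EPHA3 (-0.91) and EPHA4 (-1.97). The ERBB3 value depends on the 10 counts of day 0 in LHCN-M2.

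On the last day the difference was above 0 for ERBB2 (1.29), ERBB3 (5.97), PDGFRA (2.80), PDGFRB (3.25), RYK (0.25), PTK7 (2.28), DDR1 (0.83), DDR2 (2.54), INSR (2.05), EPHA3 (3.34), EPHA7 (1.47), EPHB3 (2.68) and EPHB4 (0.77). It was below 0 for MET (-2.05), AXL (-1.92), EPHA2 (-2.10) and EPHA4 (-2.16). RYK lost its last-day call without C2C12 day 6 replicate 1, LHCN-M2 day 0 replicate 4 or LHCN-M2 day 12 replicate 3 (adjusted p = 0.0534, 0.0544 and 0.0567).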

How the results depend on the processing

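With a change of at least 2-fold required beside the adjusted p, the receptor genes called against day 0 numbered 17 in place of 26 on day 1 and 16 in place of 30 on day 12 of LHCN-M2, and 3 in place of 19 on day 1 and 16 in place of 27 on day 6 of C2C12. Between days 12 and 1 of LHCN-M2 they numbered 6 in place of 19, and between days 6 and 1 of C2C12 19 in place of 28. Leaving out each library in turn gave 24 to 27, 29 to 31 and 18 to 19 genes for days 1 over 0, 12 over 0 and 12 over 1 of LHCN-M2, and 17 to 21, 26 to 28 and 26 to 28 for days 1 over 0, 6 over 0 and 6 over 1 of C2C12. It gave 19 to 22 and 21 to 25 for the differences between the lines on the first and last day, against 19 and 24. The stricter filter tested 23 receptor genes in LHCN-M2 and called 18, 22 and 16, and tested 24 in C2C12 and called 16, 22 and 23, and fewer genes enter this test by its construction. DESeq2 called 26, 32 and 20 in LHCN-M2 and 20, 27 and 28 in C2C12.

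Same-numbered libraries of a line did not deviate together (correlations from -0.100 to 0.0914). With a replicate block, 25, 30 and 19 genes were called in LHCN-M2, 18, 27 and 28 in C2C12, and 19 and 23 between the lines.

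Within the lines, log2 fold changes under these alternatives were compared for the 16 LHCN-M2 and 18 C2C12 genes with 5 CPM and a called 2-fold change. Between the lines they were compared for the 21 genes that reached 5 CPM in both. No called value among these changed sign. Other receptor genes printed with their values were not compared within their line. Within the lines 28 values lost and 11 gained their call, and between the lines 3 lost and 8 gained it. The last-day difference of FGFR1, not called, was 0.02 under the stricter filter in place of -0.07. The losses were those of Insr and Pdgfra on day 1 of C2C12, EPHA3 on day 12 over day 0, EPHA2 on day 12 over day 1 and RYK between the lines, and the cause was not tested. Without LHCN-M2 day 0 replicate 2, the first-day differences of EGFR and EPHA7 were called, at -0.33 and -0.48 (adjusted p = 0.0196 and 0.0322).

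Limits are 4 libraries a group from 1 line each, in which culture spread was not labelled, and last days that differ between the lines. Genes under 1 CPM rest on few counts, and differences at that level were not detectable at this depth unless called. RNA levels only were analysed.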
